A study of Mus musculus with 8 samples.

Results

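The SLC25 family holds the carriers of the inner mitochondrial membrane, and its transcripts were compared in quadriceps muscle of mice kept in low oxygen or in room air. The members are all genes for which the array's annotation pairs a probe set (a group of short oligonucleotides that read 1 transcript) with exactly 1 symbol beginning Slc25a. That rule found 93 of 45037 probe sets, which stood for 44 of the 18193 genes with a single symbol on the array. Of these, 41 genes lay above the level below which the dimmest 40% of probe sets were left out, and Slc25a13, Slc25a31 and Slc25a54 lay below it. Slc25a21, Slc25a43 and Slc25a52 were not analysed here. The study measured 8 Affymetrix arrays from adult male C57Bl/10 mice in 2 groups of 4. The Control group breathed room air for 2 weeks. The Hypoxia group was held in a chamber whose oxygen was lowered from 21% to 8% over the first week and was then kept at 8% for 7 days. The chamber is described for the Hypoxia group alone, so its effect and that of low oxygen cannot be told apart. No genetic change is given for either group, and the labels do not say whether each RNA sample was 1 animal, so every p-value measures the spread between these samples.

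The inner mitochondrial membrane lets few solutes through, and SLC25 carriers exchange adenine nucleotides, phosphate, dicarboxylates, amino acids, acylcarnitines, nucleotides and cofactors across it. In muscle fibres the exchange of matrix ATP for cytosolic ADP feeds contraction, and the malate and aspartate carriers move reducing equivalents from glycolysis into the matrix. The proteins are made in the cytosol, pass the outer membrane with the help of small TIM chaperones, and are set into the inner membrane by the TIM22 complex.

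Values are the deposited signals, on a linear scale that each array shares, and differences are Hypoxia minus Control on log2(signal + 16). A level can be compared between arrays for 1 gene, and not between genes. All 6 skeletal muscle markers were bright on every array, and their summed signal ran from 306563 to 369260 in Control and from 201259 to 265281 in Hypoxia, where all 6 fell. The ratio of 3' to 5' signal, which rises in broken RNA, reached 3.44 for Gapdh in Hypoxia 1, against 0.776 to 0.807 in Control and 0.801 to 0.874 in the remaining Hypoxia arrays. For beta-actin, Control ran from 1.09 to 1.25, Hypoxia 2 to 4 from 1.40 to 1.59, and Hypoxia 1 stood at 2.53. The summed signal of 5 fibroblast markers, all lower in Hypoxia, was 41412 to 46733 in Control and 13390 to 17778 in Hypoxia. Of 6 macrophage markers Cd68 rose (3.93, adjusted p = 6.94e-08), Emr1 and Csf1r fell (-0.85 and -0.88) and 3 did not pass. Of 5 endothelial and 3 measured Schwann cell markers, Kdr and S100b fell (adjusted p = 0.0496 and 0.0478) and the rest did not pass. None of the measured markers of these and the 2 types given further on was at 0, and their part in the carriers' values was not tested. In whole muscle, fewer cells of a type and less RNA per cell cannot be told apart.

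Carriers moved in both directions. By limma's moderated test with Benjamini-Hochberg adjustment over all 13258 genes, 14 of the 41 tested carriers passed at an adjusted p of 0.05, which is 34.1% of them, beside 33.5% of all genes tested. The 5 that rose were Slc25a28, Slc25a33, Slc25a46, Slc25a24 and Slc25a5 (12.2% of the carriers, beside 14.8% of all genes). The 9 that fell were Slc25a30, Slc25a25, Slc25a1, Slc25a35, Slc25a11, Slc25a15, Slc25a4, Slc25a39 and Slc25a36 (22% of the carriers, beside 18.8% of all genes). The share that passed was thus near the background. With each array centred on its median, 6 carriers rose and 7 fell. Without Hypoxia 1, the array with the high Gapdh ratio, 6 rose and 9 fell. Without Control 4, 3 rose and 9 fell. Without Control 1, and likewise without Control 3, 5 rose and 6 fell.

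The median carrier differed by -0.22, beside -0.041 over all genes tested, and the median size of a difference was 0.49, beside 0.42. No carrier rose at least 2-fold, beside 5.91% of all genes, and 5 fell at least that far (Slc25a30, Slc25a25, Slc25a1, Slc25a35 and Slc25a11), beside 8.91%. The 4 Hypoxia arrays all lay above the 4 Control arrays for 5 carriers, beside 14.8% of all genes, and all below them for 7, beside 18.7%. Together these were 29.3% of the 41, beside 33.4% of all genes.

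**Figure D1:**
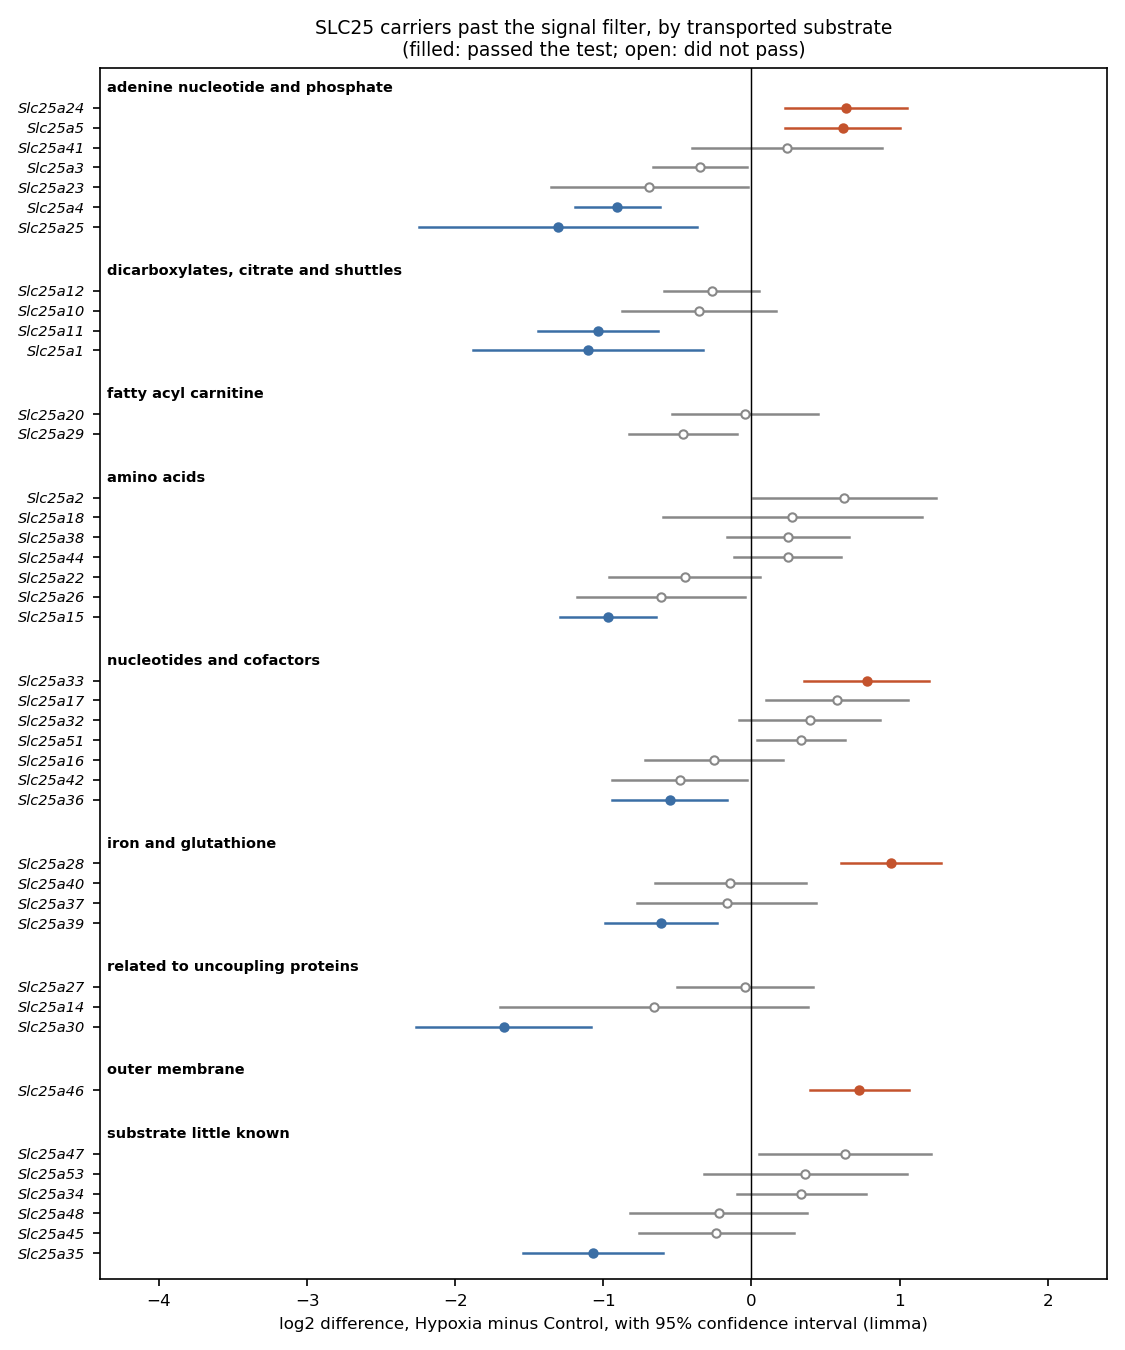
The plot gives each of the 41 tested carriers as a point at its Hypoxia minus Control difference on log2(signal + 16), with a bar for the 95% interval, grouped by substrate class. Slc25a30 lies farthest left at -1.67 and Slc25a28 farthest right at 0.94, and most bars of carriers that did not pass cross 0.

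Of 8 adenine nucleotide and phosphate carriers measured and 7 tested, 2 rose, 2 fell and 3 did not pass. Over all genes 14.8% rose and 18.8% fell. Slc25a4, the ADP/ATP carrier of heart and skeletal muscle, read 58970, 63760, 55456 and 51481 in the Control arrays and 32224, 27167, 28349 and 35172 in the Hypoxia arrays. Each Hypoxia array lay below every Control array, and the fall was 0.90 (log2 difference -0.90, SE 0.13, adjusted p = 0.000219). All 4 of its probe sets fell, by -0.65 to -1.81. Slc25a5, the ADP/ATP carrier of proliferating and many other cells, read 4669, 3670, 4682 and 3586 in Control and 4927, 5497, 8000.0 and 7364 in Hypoxia. Here each Hypoxia array lay above every Control array (difference 0.62, SE 0.18, adjusted p = 0.0174). All 8 of its probe sets were higher in Hypoxia, by 0.49 to 1.41, and 7 of them passed among all probe sets. The call for Slc25a5 was lost with quantile normalization (0.52, adjusted p = 0.0629) and without Control 2, Control 4 or Hypoxia 4 (0.56, 0.55 and 0.54, adjusted p = 0.0561, 0.0569 and 0.0527).

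Because the ADP/ATP carriers moved apart, the letters just before their start sites are shown. They come from the RefSeq promoter table on GRCm38.p6 and cover the 250 bases before the annotated start, chr8:46211063-46211312 on the minus strand for Slc25a4 and chrX:36795347-36795596 on the plus strand for Slc25a5, 5′ to 3′. Both strands were searched for ACGTG, 1 form of the core bound by hypoxia-inducible factors, and for TGACG, the cyclic AMP response element half-site. The NRF1 element and TNAAGGTCA (the estrogen-related receptor element) were searched too. The form GCGTG of the core was not searched. Neither window held a match to the motifs searched, so the letters are all in lower case.
Slc25a4: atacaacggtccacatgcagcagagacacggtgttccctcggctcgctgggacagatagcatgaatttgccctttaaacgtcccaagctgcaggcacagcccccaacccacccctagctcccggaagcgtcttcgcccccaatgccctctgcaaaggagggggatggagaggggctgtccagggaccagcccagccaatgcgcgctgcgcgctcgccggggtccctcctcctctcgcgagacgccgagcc
Slc25a5: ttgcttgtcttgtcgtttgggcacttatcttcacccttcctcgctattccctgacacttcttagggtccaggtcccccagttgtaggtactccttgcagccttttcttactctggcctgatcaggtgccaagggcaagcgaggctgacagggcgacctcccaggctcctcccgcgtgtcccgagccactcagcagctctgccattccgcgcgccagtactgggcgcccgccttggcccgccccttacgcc

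Over the family, 34 of the 44 genes had an entry in that table, with 43 windows in all. ACGTG was in 11 of the 43 windows (25.6%), beside 16.6% of the 32851 windows of all genes, and TGACG was in 11 as well (25.6%, beside 17.8%). The NRF1 element was in 2 windows (4.65%, beside 3.74%) and TNAAGGTCA in 0 (beside 1.14%). Matches of both can overlap. By gene, ACGTG was before 10 of the 34 carriers in the table. These include 4 of the 8 fallen carriers in it (Slc25a1, Slc25a15, Slc25a30 and Slc25a36) and 2 of the 4 risen carriers (Slc25a28 and Slc25a33). A gene can have several windows, and the share by gene over all genes was not computed, so nothing is read from these counts. A match is a description of letters, and binding was not measured here.

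The mitochondrial phosphate carrier Slc25a3, which supplies ATP synthase, read 38868, 40652, 42067 and 37449 in Control and 39459, 33043, 26122 and 27860 in Hypoxia. Hypoxia 1 lay among the Control values and the other 3 below them. The difference of -0.35 did not pass (adjusted p = 0.0877), and without Hypoxia 1 it was -0.46 and passed (adjusted p = 0.00948).

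The ATP-Mg/phosphate carriers Slc25a23, Slc25a24 and Slc25a25, which calcium regulates and which change the size of the matrix adenine nucleotide pool, also went different ways. Slc25a24 read 560, 595, 671 and 394 in Control and 700.4, 868, 1044 and 854 in Hypoxia, with no overlap (0.64, SE 0.19, adjusted p = 0.0201). Without Control 4 or Hypoxia 3 its call was lost (0.49 and 0.55, adjusted p = 0.0636 and 0.0539). The call of Slc25a24 was lost too with a mean over its probe sets (0.76, adjusted p = 0.0627). Its dimmer probe set differed by 0.88 and did not pass among all probe sets (adjusted p = 0.16). Slc25a25 read 4727, 1157, 2034 and 924 in Control and 483, 631, 1310 and 654 in Hypoxia. Control 1 was far above the rest, and Hypoxia 3 lay among the Control values. The difference of -1.31 passed (SE 0.43, adjusted p = 0.0334) with groups that overlap. It was -0.84 without Control 1 (adjusted p = 0.0769). Without Control 3, Hypoxia 1, Hypoxia 2 or Hypoxia 4 the differences were -1.25, -1.12, -1.25 and -1.26 (adjusted p = 0.0755, 0.0825, 0.0794 and 0.0732). With a mean over its probe sets it was -0.78 (adjusted p = 0.084), since another of its probe sets differed by -1.35 and the remaining one by 0.32. Slc25a23 read 221, 165, 208 and 259 in Control and 63.5, 143, 184 and 138 in Hypoxia, with Hypoxia 3 among the Control values (-0.69, adjusted p = 0.105). Slc25a41 differed by 0.24 (adjusted p = 0.587), and Slc25a31, the ADP/ATP carrier of germ cells, was below the filter at means of 17.1 in Control and 9.55 in Hypoxia.

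**Figure D2:**
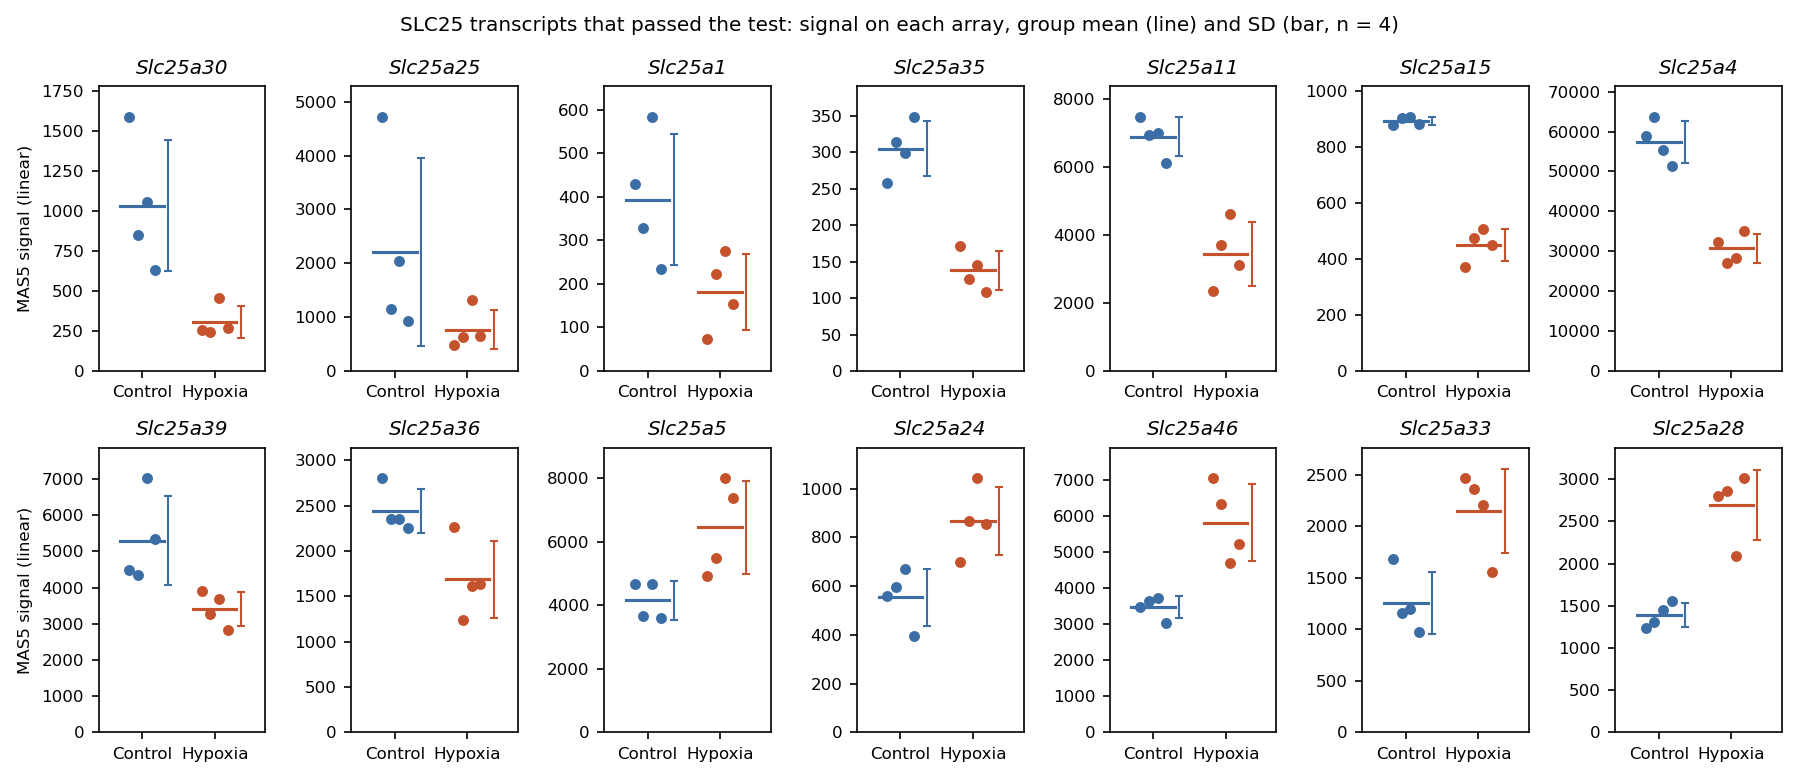
Each of 14 panels gives the MAS5 signal of a carrier that passed the test, on a linear axis, with a point per array, a line at the group mean and a bar for the SD (n = 4). The groups separate for Slc25a4, with 51481 to 63760 in Control and 27167 to 35172 in Hypoxia, and overlap for Slc25a25, where Control runs from 924 to 4727.

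Of 4 tested carriers of dicarboxylates and of the reducing-equivalent shuttles 2 fell, beside 18.8% of all genes, 0 rose and 2 did not pass. Slc25a11, the oxoglutarate/malate carrier of the malate-aspartate shuttle, read 7481, 6950, 6996 and 6101 in Control and 2344, 3700, 4604 and 3110 in Hypoxia. Its groups were apart, and the fall was about 2.05-fold (-1.04, SE 0.19, adjusted p = 0.000976). Its partner in that shuttle, the aspartate/glutamate carrier Slc25a12, read 15848, 16378, 16279 and 16329 in Control and 16378, 14251, 10360 and 13513 in Hypoxia (-0.27, adjusted p = 0.186). Hypoxia 1 lay at the top of the Control range and the other 3 below it. Without Hypoxia 1 the difference for Slc25a12 was -0.36 and passed (adjusted p = 0.049). A second Slc25a12 probe set differed by -1.27 and passed among all probe sets. Slc25a13, the other aspartate/glutamate carrier, was below the filter, at 36.7, 22, 18.4 and 27.4 in Control and 36.5, 25.7, 18 and 34 in Hypoxia.

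Slc25a1, the citrate carrier that exports citrate for fatty acid synthesis, read 428, 328, 584 and 233 in Control and 74.4, 222, 276 and 154 in Hypoxia. The difference of -1.10 passed (SE 0.36, adjusted p = 0.0309), although Control 4 lay below Hypoxia 3. The call was lost without Control 1, Control 2, Control 3, Hypoxia 1 or Hypoxia 4, with differences of -1.04, -1.16, -0.90, -0.77 and -1.08 (adjusted p = 0.0739, 0.0502, 0.0974, 0.0665 and 0.0651). Slc25a10, the dicarboxylate carrier, read 542, 532, 816 and 387 in Control and 288, 490.1, 504 and 465 in Hypoxia (-0.35, adjusted p = 0.287). Control 3 was the highest array for Slc25a1 and for Slc25a10. It was also the highest for the adipocyte hormone Adipoq, which read 2200, 8817, 14610 and 3811 in Control and 1331, 666, 1460 and 3000.0 in Hypoxia. Of the 4 adipocyte markers measured, 3 were past the filter and all 3 fell, and the summed signal of the 4 was 28568 to 59094 in Control and 17225 to 26615 in Hypoxia. The part of adipocyte RNA in the values of Slc25a1 and Slc25a10 was not tested.

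The carriers classed here under acylcarnitine, Slc25a20 and Slc25a29, did not pass. Slc25a20, the carnitine/acylcarnitine carrier that lets long-chain fatty acids reach beta-oxidation, read 2556, 2963, 4542 and 4754 in Control and 4439, 3220, 2561 and 3954 in Hypoxia. The ranges were nearly the same, and the difference of -0.044 had a 95% interval of -0.54 to 0.45 (adjusted p = 0.905). Slc25a29, a related carrier of basic amino acids, read 580, 668, 706 and 616 in Control and 356, 479, 478 and 552 in Hypoxia. Its groups did not overlap, yet the difference of -0.46 missed the threshold (adjusted p = 0.0512). It passed without Hypoxia 4 (-0.55, adjusted p = 0.0357), with the 60% filter (-0.46, adjusted p = 0.0394) and with a pseudocount of 64 (-0.42, adjusted p = 0.0495). The 5 probe sets of Slc25a29 differed in sign, and their mean gave 0.045.

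Among the 7 carriers classed here under amino acids, where Slc25a29 is not counted, 1 fell, 0 rose and 6 did not pass. Over all genes 18.8% fell and 14.8% rose. Slc25a15, the ornithine carrier that links the matrix to the urea cycle and to polyamine and proline pathways, read 878, 904, 910 and 884 in Control. In Hypoxia it read 373, 474, 508 and 452, with every array far under the narrow Control range (-0.97, SE 0.15, adjusted p = 0.000304). The other ornithine carrier, Slc25a2, read 70.6 to 159 in Control and 173 to 231 in Hypoxia. The groups of Slc25a2 did not overlap, and its difference of 0.63 did not pass (adjusted p = 0.113).

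The glutamate carriers Slc25a22 and Slc25a18 differed by -0.45 and 0.28 (adjusted p = 0.164 and 0.647), and the glycine carrier Slc25a38 by 0.25 (adjusted p = 0.351). Slc25a26, which brings the methyl donor S-adenosylmethionine into the matrix, read 800, 582, 320.4 and 738 in Control and 297, 383, 353 and 478 in Hypoxia (-0.61, adjusted p = 0.0923). Control 3 lay among the Hypoxia values, and without it the difference was -0.88 and passed (adjusted p = 0.00688). Slc25a44, a branched-chain amino acid carrier, differed by 0.25 (adjusted p = 0.287) on its brightest probe set and by 0.78 on another, which passed among all probe sets.

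Carriers of nucleotides and cofactors held 1 rise and 1 fall among 7, beside 14.8% and 18.8% of all genes. These were the carriers of pyrimidine nucleotides. Slc25a33, which brings pyrimidine nucleotides to mitochondrial DNA and RNA synthesis, read 1681, 1155, 1195 and 978 in Control and 2467, 2358, 2209 and 1559 in Hypoxia. Hypoxia 4 lay under Control 1, and the other 3 Hypoxia arrays lay above all Control arrays (0.78, SE 0.20, adjusted p = 0.008). Slc25a36, the other pyrimidine nucleotide carrier, read 2806, 2359, 2352 and 2253 in Control and 2267, 1243, 1619 and 1638 in Hypoxia. Hypoxia 1 lay just above Control 4, and the rest were below (-0.55, SE 0.18, adjusted p = 0.0296). Its call was lost with median centring (-0.47, adjusted p = 0.0877). It was lost too without Control 1, Control 2, Control 3, Hypoxia 2, Hypoxia 3 or Hypoxia 4, with differences of -0.49, -0.57, -0.57, -0.42, -0.54 and -0.55 (adjusted p from 0.0515 to 0.0931). The other probe sets of Slc25a36 differed by -1.26 and -1.03 and passed among all probe sets.

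The promoter windows of both pyrimidine nucleotide carriers, which moved apart, held matches to the same motifs. They are chr4:149774268-149774517 for Slc25a33 and chr9:97111042-97111291 for Slc25a36, both on the minus strand of GRCm38.p6 from the RefSeq table and printed 5′ to 3′. Capitals mark ACGTG or TGACG on either strand: CACGTG holds ACGTG on both strands, and CGTCA is TGACG on the other strand.
Slc25a33: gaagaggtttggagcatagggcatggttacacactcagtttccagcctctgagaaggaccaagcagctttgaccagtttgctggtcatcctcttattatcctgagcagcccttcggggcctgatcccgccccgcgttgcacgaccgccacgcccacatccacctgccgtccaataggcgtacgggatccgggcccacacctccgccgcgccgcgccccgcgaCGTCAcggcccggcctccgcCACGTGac
Slc25a36: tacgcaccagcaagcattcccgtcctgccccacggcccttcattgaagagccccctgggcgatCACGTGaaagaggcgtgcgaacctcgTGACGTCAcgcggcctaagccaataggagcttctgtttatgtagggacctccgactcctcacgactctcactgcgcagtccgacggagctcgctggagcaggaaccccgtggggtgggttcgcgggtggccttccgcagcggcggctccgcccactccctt

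In Slc25a33 the CACGTG begins 8 bases before the start and the CGTCA 28 bases before it. In Slc25a36 the CACGTG begins 187 bases before the start, and the overlapping TGACG and CGTCA begin 161 and 158 bases before it. CACGTG and CGTCA stand before both carriers, at unlike positions, and their part in the rise or the fall was not tested.

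Of the cofactor carriers, Slc25a51, which brings NAD into the matrix, read 2188, 2396, 2620 and 2288 in Control and 3154, 3334, 2566 and 2951 in Hypoxia (0.33, adjusted p = 0.0815). Without Hypoxia 3, the array among the Control values, the difference was 0.41 and passed (adjusted p = 0.0419). Slc25a17, a peroxisomal carrier of coenzyme A and related cofactors, read 276, 365, 210 and 318 in Control and 359, 609, 367 and 451 in Hypoxia. Its difference of 0.58 did not pass (adjusted p = 0.0613), and it passed with median centring (0.66, adjusted p = 0.0373) or quantile normalization (0.71, adjusted p = 0.0248). It passed as well without Control 2 or Hypoxia 1 (0.69 and 0.67, adjusted p = 0.0473 and 0.0427). Slc25a42, the mitochondrial coenzyme A carrier, read 439, 465, 525 and 329 in Control and 269, 236, 340 and 400.4 in Hypoxia, with groups that overlap (-0.49, adjusted p = 0.0949). Slc25a16 differed by -0.25 (adjusted p = 0.409) and the folate and FAD carrier Slc25a32 by 0.39 (adjusted p = 0.193). Another Slc25a32 probe set differed by 1.05 and passed among all probe sets.

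Carriers of iron and glutathione held 1 rise and 1 fall among 4, beside 14.8% and 18.8% of all genes. Slc25a28, mitoferrin 2, which imports iron for heme and iron-sulfur clusters outside the erythroid lineage, read 1237, 1304, 1455 and 1556 in Control and 2806, 2863, 2089 and 3015 in Hypoxia. All Hypoxia arrays were above all Control arrays, and the rise was about 1.92-fold (0.94, SE 0.16, adjusted p = 0.00051). Slc25a37, mitoferrin 1, which is prominent in erythroid cells, read 750, 696, 1096 and 737 in Control and 1129, 876, 380 and 692 in Hypoxia (-0.17, adjusted p = 0.692). Its Hypoxia arrays spread on both sides of the Control arrays.

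Slc25a39, which imports glutathione, read 4479, 4355, 7023 and 5332 in Control and 3904, 3265, 3671 and 2828 in Hypoxia. The groups were apart (-0.61, SE 0.17, adjusted p = 0.0158), and the call was lost without Control 3 (-0.47, adjusted p = 0.0528) and with median centring (-0.53, adjusted p = 0.0609). Its relative Slc25a40 differed by -0.14 (adjusted p = 0.687). Control 3, the highest Control array for Slc25a37 and Slc25a39, was also the highest for the erythroid heme enzyme Alas2, at 1300 beside 438 to 450.2 in the other Control arrays. Of 4 erythroid markers measured, 2 were past the filter and 0 passed the test. Their summed signal was 675 to 1709 in Control and 923 to 1384 in Hypoxia, and their part in these carriers was not tested.

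Slc25a30, also called kidney mitochondrial carrier protein 1 and close in sequence to the uncoupling proteins, had the largest fall among the 41 carriers. It read 1593, 853, 1056 and 635 in Control and 254, 242, 455 and 272 in Hypoxia, with every Hypoxia array below every Control array. The fall was about 3.19-fold (-1.67, SE 0.27, adjusted p = 0.000446). All 5 of its probe sets were lower in Hypoxia, and the 3 past the filter passed. Slc25a14 and Slc25a27, the brain-enriched relatives of the uncoupling proteins, differed by -0.66 and -0.046 (adjusted p = 0.324 and 0.894). A second Slc25a27 probe set differed by 1.09 and passed among all probe sets, against the sign of the brightest.

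Slc25a46, a member of the outer membrane that takes part in fusion and in lipid exchange between membranes, read 3478, 3638, 3728 and 3029 in Control. It read 7043, 6316, 4679 and 5207 in Hypoxia, above Control on every array (0.73, SE 0.16, adjusted p = 0.00294). Its second probe set differed by 0.24 and did not pass. Among 6 tested carriers whose substrates are less well defined, 1 fell, beside 18.8% of all genes, and 5 did not pass. Slc25a35 read 258, 314, 299 and 349 in Control and 172, 126, 146 and 109 in Hypoxia, with no overlap (-1.07, SE 0.22, adjusted p = 0.00224). Slc25a34 differed by 0.34, Slc25a45 by -0.24, Slc25a47 by 0.63, Slc25a48 by -0.22 and Slc25a53 by 0.36, and none of these passed (adjusted p from 0.0886 to 0.586). Slc25a54 was below the filter, at means of 18.1 in Control and 15.7 in Hypoxia.

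Closely related carriers were then compared within arrays: for each pair the difference between both log2 values was taken on each array, and its shift from Control to Hypoxia is given. Of 10 pairs 9 could be compared, and in 6 the Hypoxia arrays did not overlap the Control arrays. For those 6 the exact two-sided permutation p was 0.0286, the smallest that 4 against 4 arrays allow. The pairs were chosen with results of these data known, and a p adjusted over them would depend on how many were listed, so the shifts are a description and none is called.

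Slc25a4 lost ground to Slc25a5 by a shift of -1.52 (95% interval -2.05 to -0.99). Slc25a33 gained on Slc25a36 by 1.33 (0.76 to 1.91), and Slc25a28 gained on Slc25a37 by 1.11 (0.43 to 1.79). Among the calcium-regulated carriers, Slc25a24 gained on Slc25a25 by 1.94 (0.70 to 3.19), and Slc25a23 lost ground to Slc25a24 by -1.33 (-2.11 to -0.55). Slc25a17 gained on Slc25a42 by 1.06 (0.13 to 2.00), although neither passed by itself. Each of these 6 intervals lies on 1 side of 0, which is no test, since these are the pairs whose arrays separated. The share of such separation over other gene pairs was not computed.

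The shift between Slc25a10 and Slc25a11 was 0.68, with an interval of 0.18 to 1.19 and arrays that overlap. Between Slc25a39 and Slc25a40 it was -0.47, with an interval of -1.13 to 0.19, and with quantile normalization it was -0.66. Between Slc25a18 and Slc25a22 it was 0.73, with an interval of -0.45 to 1.91. The intervals of the last 2 pairs hold 0 and also shifts as large as some of the 6 above.

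**Figure D3:**
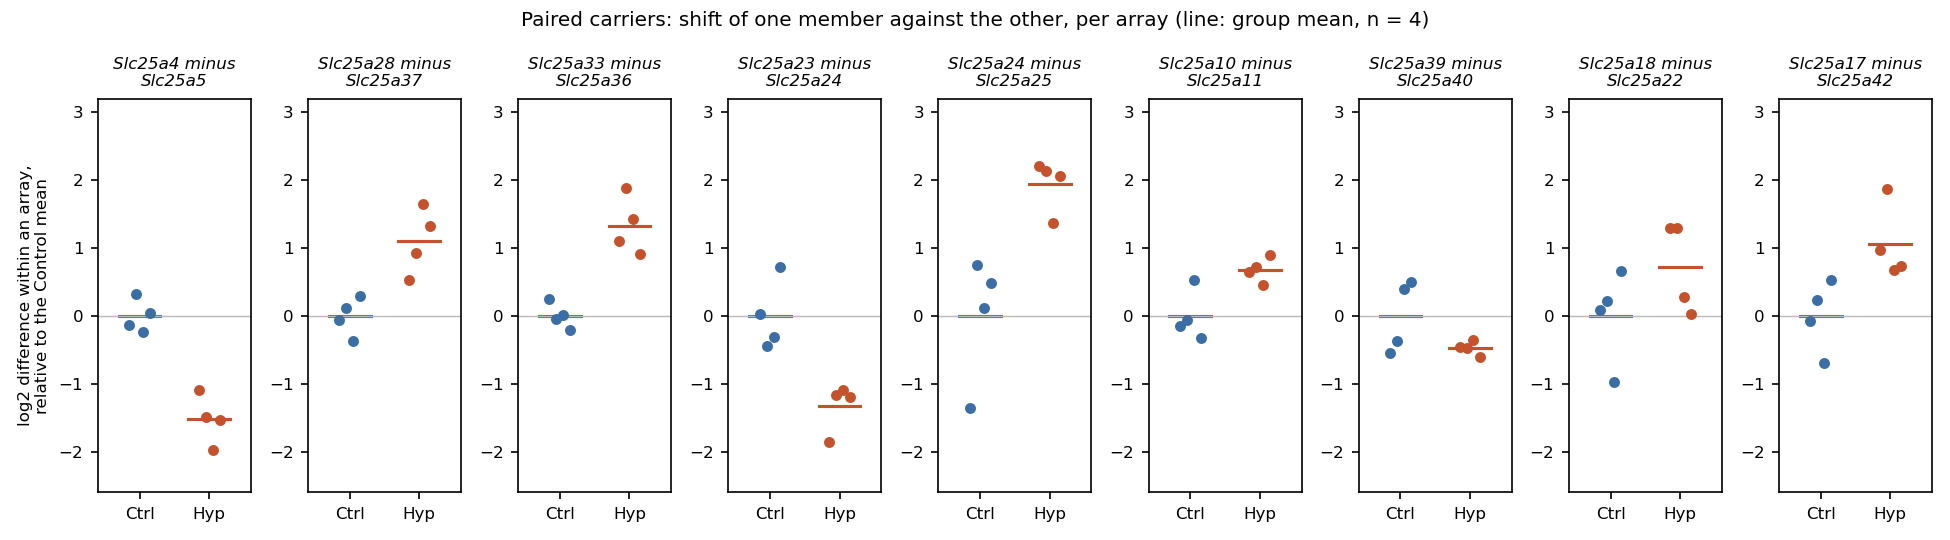
For each of the 9 compared pairs the plot gives the within-array log2 difference between both carriers on the 8 arrays, each pair centred on its Control mean, with Control and Hypoxia arrays in separate columns. The Hypoxia arrays of Slc25a4 minus Slc25a5 lie below Control by -1.52 on average, and those of Slc25a24 minus Slc25a25 lie above it by 1.94.

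How far the probe sets of 1 carrier agreed varied. Of the 93 probe sets 77 were past the filter, 21 carriers had a single probe set in all, and 18 had more than 1 past the filter. Slc25a4, Slc25a5, Slc25a30, Slc25a36 and Slc25a39 each had several probe sets past the filter that all kept 1 sign, but of the 4 of Slc25a39 the brightest alone passed, and the others had adjusted p of 0.0694 to 0.130 among all probe sets. Of the 10 carriers that did not pass on the brightest probe set and had another past the filter, 5 had another that passed: Slc25a12, Slc25a26, Slc25a27, Slc25a32 and Slc25a44. With the mean over probe sets Slc25a12, Slc25a26, Slc25a32 and Slc25a44 passed, and Slc25a27 did not (0.52, adjusted p = 0.078).

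**Figure D4:**
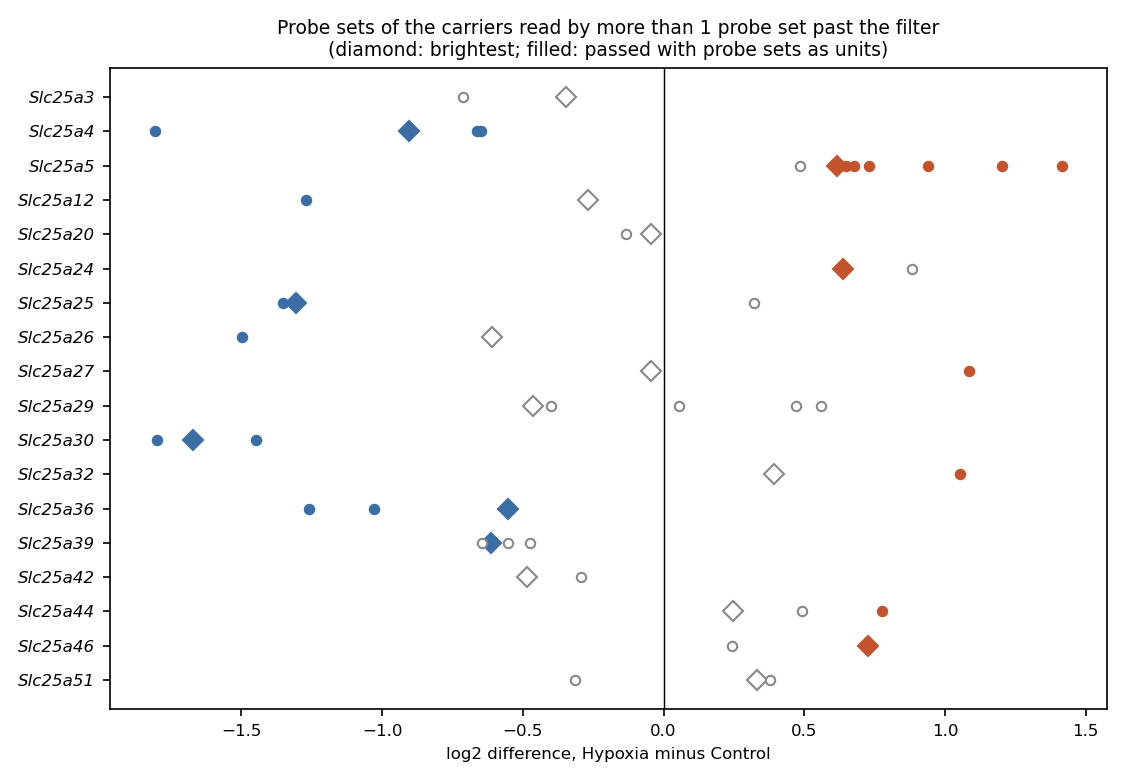
Each row is a carrier with more than 1 probe set past the filter, and each point is the Hypoxia minus Control difference of a probe set on log2(signal + 16), with a diamond for the brightest and filled marks for those that passed with probe sets as units. The points of Slc25a5 all lie between 0.49 and 1.41, and those of Slc25a29 fall on both sides of 0.

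Genes that work beside the carriers were measured too. Of 50 partners 44 were tested, of which 4 rose, 18 fell and 22 did not pass, so 50% passed beside 33.5% of all genes, and the median difference was -0.27. The list was chosen with results of these data known, and nothing particular to it is read from this share.

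Among the shuttle enzymes 4 of 6 fell, beside 18.8% of all genes. Gpd1, the cytosolic enzyme of the glycerol phosphate shuttle, read 5239, 5392, 6101 and 5955 in Control and 394, 422, 506 and 652 in Hypoxia (-3.50, SE 0.17, adjusted p = 3.57e-08). Gpd2, its mitochondrial counterpart, fell by 2.35 on the log2 scale (adjusted p = 8.58e-07). Mdh1 and Mdh2, the malate dehydrogenases on either side of Slc25a11, differed by -0.75 and -0.58 (adjusted p = 0.0112 and 0.0219). Got1 and Got2, the aspartate aminotransferases of that shuttle, differed by -0.37 and -0.25 and did not pass (adjusted p = 0.0527 and 0.216), although another Got2 probe set passed among all probe sets at -0.79 and a dimmer one differed by 0.55 without passing.

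Beside the ADP/ATP carriers, Ckmt2, the creatine kinase that takes up the ATP they export in muscle mitochondria, read 44815, 35499, 43967 and 36321 in Control and 5435, 2621, 4928 and 12701 in Hypoxia. That is a fall of about 7.28-fold with groups far apart (-2.86, SE 0.35, adjusted p = 4.67e-05). The ATP synthase subunits Atp5a1 and Atp5b differed by -0.52 and -0.42 (adjusted p = 0.00701 and 0.0179). The outer membrane channels Vdac1, Vdac2 and Vdac3, through which the same metabolites pass, differed by -0.54, -0.61 and -0.64 (adjusted p from 0.00184 to 0.0132). Other partners of these classes, Ckmt1, Ak4, Mpc1, Micu2, Smdt1, Letm1 and Ppif, did not pass and differed by -0.39 to 0.31. All 6 skeletal muscle markers also fell, by -0.44 to -1.16. Slc25a4 thus lay lower with the partners that fell, while Slc25a5 was higher, and nothing particular to these carriers is read from this.

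Beside Slc25a20, Cpt2, which frees acyl groups from the carnitine that this carrier brings in, read 2744, 2635, 3424 and 2689 in Control and 1406, 1101, 1076 and 1585 in Hypoxia (-1.15, SE 0.16, adjusted p = 0.000172). A dimmer Cpt2 probe set differed by -0.35 and did not pass among all probe sets (adjusted p = 0.238). Crat and Cpt1a differed by -0.40 and 0.13 and did not pass (adjusted p = 0.0915 and 0.675). Citrate synthase, Cs, differed by -1.16 (adjusted p = 0.000697), and Acly, which splits the citrate that Slc25a1 exports, by 0.13 (adjusted p = 0.638). Alas1, which begins heme synthesis outside the erythroid lineage, differed by -1.38 (adjusted p = 4.54e-05), while the iron carrier Slc25a28 was higher. A dimmer Alas1 probe set differed by -0.54 and did not pass among all probe sets (adjusted p = 0.149). Ucp3, the uncoupling protein of muscle and a carrier of the same fold, read 2482, 1776, 1917 and 1741 in Control and 622, 483, 914 and 1364 in Hypoxia (-1.30, SE 0.27, adjusted p = 0.00226). Ucp1, the uncoupling protein of brown fat, differed by -0.27 (adjusted p = 0.678). Of the carrier homologues of the outer membrane, Mtch1 differed by -2.26 (adjusted p = 0.000152) on a single probe set, and Mtch2 by 0.31 (adjusted p = 0.085), with 2 other Mtch2 probe sets that passed among all probe sets at 0.76 and 0.73.

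Of 10 tested genes that bring carriers into the membrane, 3 rose and 2 fell, beside 14.8% and 18.8% of all genes. The small TIM chaperones Timm10 and Timm10b differed by 0.89 and 1.10 (adjusted p = 0.000213 and 0.000334). Timm22, the pore that inserts carriers, read 1194, 1110, 1090.3 and 1267 in Control and 528, 602, 744 and 684 in Hypoxia (-0.86, SE 0.15, adjusted p = 0.000884). Timm13, another small chaperone, differed by -0.66 (adjusted p = 0.0093). Timm9, Timm8a1, Timm8b, Timm29 and Agk did not pass and differed by -0.26 to 0.39, with -0.038 for Timm9 (adjusted p = 0.898). A dimmer Timm8a1 probe set passed among all probe sets at 0.51. Tomm70a, the outer membrane receptor for carriers, differed by 1.48 on its brightest probe set (adjusted p = 0.000525). Its probe sets disagree: among all probe sets another passed at 1.48, and a further pair passed at -0.39 and -1.87, so its direction is uncertain. The remaining partner that rose was Oat, an ornithine enzyme of the matrix (0.45, adjusted p = 0.0281), while the calcium uniporter Mcu differed by -0.67 (adjusted p = 0.0108). Without Hypoxia 2 only 2 of the 44 partners rose, and without Hypoxia 3, 6 did.

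**Figure D5:**
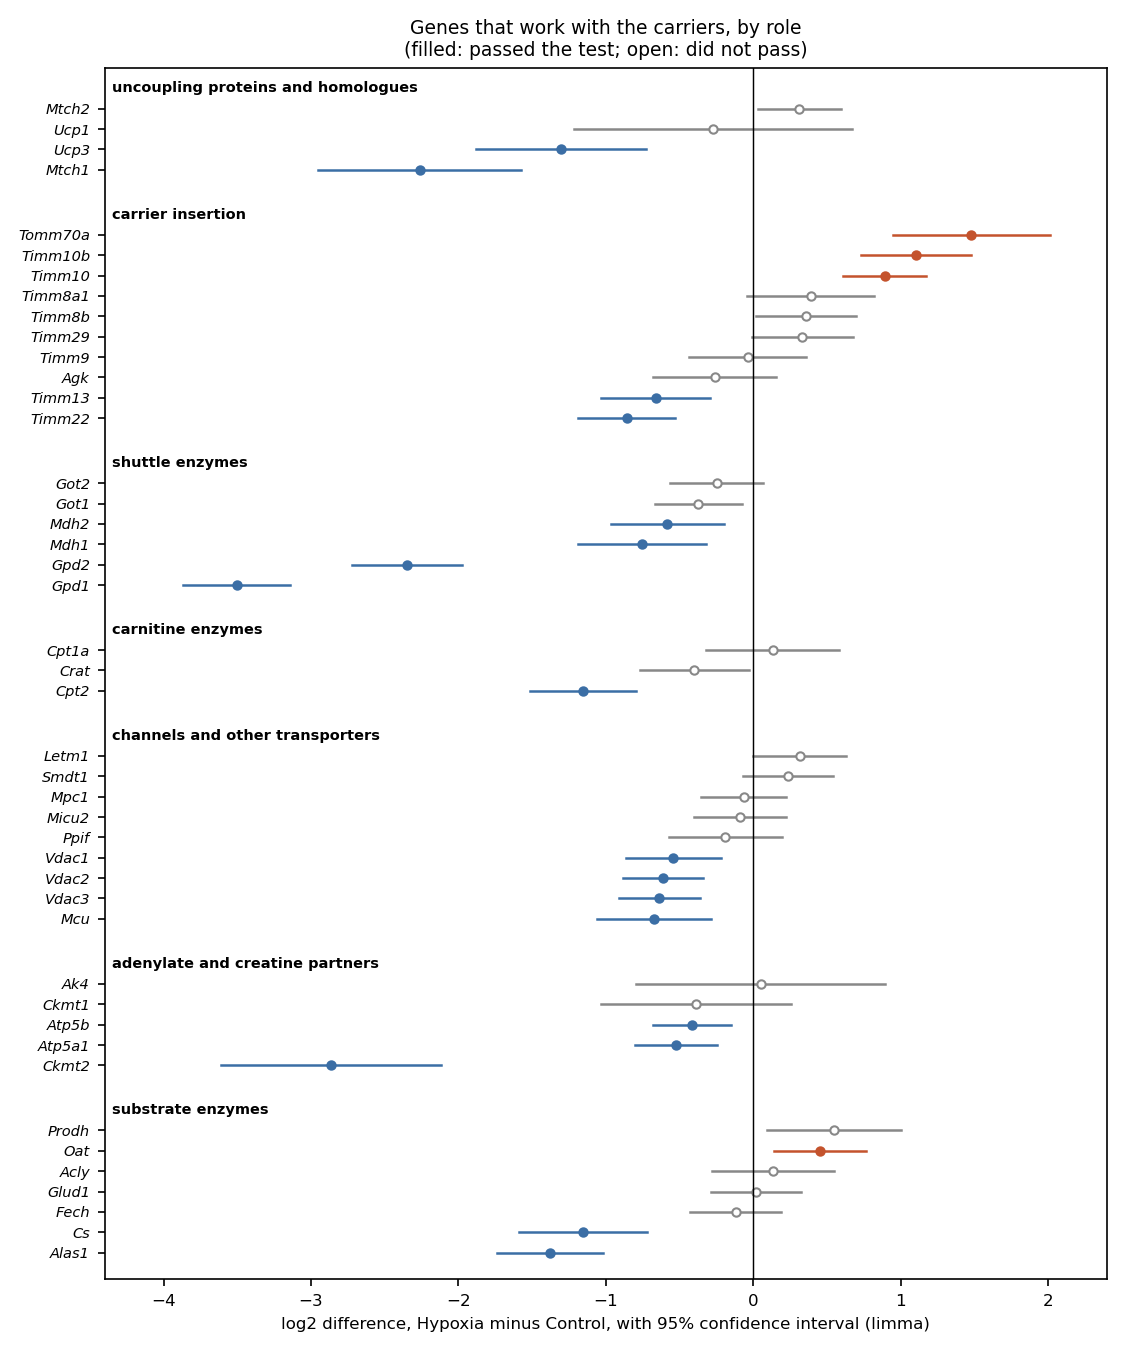
The plot gives the 44 tested partner genes as points at their Hypoxia minus Control difference on log2(signal + 16), with 95% intervals, grouped by role. Gpd1 at -3.50 and Ckmt2 at -2.86 lie farthest left, and Tomm70a at 1.48 farthest right.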

How the data were processed

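Quadriceps RNA was read on Affymetrix Mouse 430 2.0 arrays, 1 for each sample. The authors deposited MAS5 signal intensity values on a linear scale, per the submitters' processing notes, with no version or detection calls in the sources used here. Their scaling (a 2% trimmed mean near 500 on every array) was kept. Dim MAS5 values are noisy, the brightest can saturate, and precision is limited by the number of arrays. The 64 control probe sets and the dimmest 40% of the others, by mean log2(signal + 16), were left out of the 45101. A gene's brightest probe set stood for it. The 13258 genes were tested two-sided with limma 3.58.1 under R 4.3.3, using lmFit and then eBayes with a trend on intensity and no block, and p-values were adjusted by Benjamini-Hochberg over all genes. Names came from GEO's platform annotation, and 44 of 44 carriers matched a RefSeq symbol. For carrier pairs the exact permutation p is given as a description, and the 95% intervals assume equal spread in both groups. Deviations of same-numbered arrays correlated at -0.07 to 0.00, which gives no sign that the numbers pair the samples. So few arrays cannot exclude a pairing. Every carrier is named; values on each array are given for those that passed with a log2 difference of at least 1, for those of the major energy pathways and for pairs whose arrays separated. Partners of the shuttle, carnitine and uncoupling classes, and those that passed with a difference of at least 1, are named by rule. Other partners, and array values of further called carriers, were chosen after their values were seen. The members, pairs and lists were chosen with earlier results of these data known.

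A simulation altered 50 genes of each size among the 13258. The test found 8% of changes of 0.5 on the log2 scale, 56% of those of 1, 44% of those of -1 and 80% of those of 2, and made 0 false calls. In the data 33.5% of genes passed, a far larger share than was altered in the simulation. The adjustment depends on that share, so these figures do not give the recovery or the error rate of the results here. Alternatives changed the normalization (quantile, or centring on the median), the pseudocount (1 or 64), the filter (none, or 60%), the summary (mean of probe sets), the trend, the replicate block and the arrays, each left out in turn. Probe sets as units were added after seeing the data.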

Additional observations from a re-analysis of the deposited data

Results flagged for a closer look

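In each group of 4 arrays, a carrier was listed when its highest or lowest array stood apart by more than Dixon's 95% critical value for 4 values. This held for 5 of 88 groups, and chance gives about 1 in 20. Slc25a31, the ADP/ATP carrier of germ cells, read 59.1 in Control 2 and 2.50 to 3.50 in the other Control arrays, all below the filter. Slc25a10 read 287.8 in Hypoxia 1 and 464.7 to 503.7 in the other Hypoxia arrays, and Hypoxia 1 is the array with the high Gapdh 3' to 5' ratio. Slc25a44 read 863.8 in Hypoxia 3 and 626.6 to 655.9 in the others. Slc25a45 read 276.9 in Hypoxia 3 and 157.7 to 172.1 in the others. Slc25a37 read 1095.9 in Control 3 and 696.3 to 749.8 in the other Control arrays, and Control 3 was also high for Alas2.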

How the results depend on the processing

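Of the 14 calls, those of Slc25a4, Slc25a11, Slc25a15, Slc25a28, Slc25a30, Slc25a33, Slc25a35 and Slc25a46 held in all 18 alternatives. Calls were lost in 8 alternatives for Slc25a25 and for Slc25a36, 7 for Slc25a1, 4 for Slc25a5, 3 for Slc25a24 and 2 for Slc25a39, always with the direction kept. When each array was left out in turn, 3 to 6 carriers rose and 6 to 9 fell, and 2 to 6 partners rose and 16 to 19 fell; the lowest counts of rises were 3 carriers without Control 4 and 2 partners without Hypoxia 2. Signs turned in 13 cases, all in carriers that did not pass: Slc25a27 was 0.069 with quantile normalization, 0.036 with median centring and 0.52 with the mean of probe sets, Slc25a20 was 0.038 with median centring, and Slc25a29 was 0.045 with the mean of probe sets. Leaving out each array gave -0.19 to 0.10 for Slc25a27, -0.20 to 0.10 for Slc25a20, -0.086 to 0.47 for Slc25a18, -0.38 to 0.13 for Slc25a37 and -0.0010 to 0.46 for Slc25a41. With quantile normalization the shift of Slc25a39 against Slc25a40 was -0.66, against -0.47 as reported; the cause was not tested. With the replicate block, 6 carriers rose and 9 fell, including all 14 called without it, and 4 partners rose and 17 fell; 0 of the 8 arrays correlated best with their own number in the other group. The 9 shifts between carriers of a pair kept their sign with each array left out, and the permutation test was not repeated there. Dim carriers near the filter are limited by signal over background.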
